A study of Homo sapiens with 9 samples.

Results

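The genes described here are those of the thioredoxin system and its binding protein TXNIP: TXNRD1, TXNRD2, TXN, TXN2, PRDX1, SRXN1 and TXNIP. They were chosen by gene symbol, taking for each the probe set that names it alone and, where there were several, the one with the highest mean over all arrays. By this rule 6 of the 7 genes were measured, among 14207 genes measured in all. No probe set used here named TXN, so it is not analysed here. The mean over all arrays is the one measured value the rule uses, and it takes no difference between dose groups. The genes were, however, listed with earlier results of these data known, so their differences and p-values describe them and are no independent evidence.

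The 9 arrays hold total RNA of ARPE-19, a human cell line derived from retinal pigment epithelium, in 3 groups of 3 arrays: vehicle control, 100 µg/ml and 250 µg/ml cigarette smoke condensate. All groups were grown to confluence in medium with serum and then kept in medium with albumin and no serum named. The condensate was a commercial stock of 40 mg/ml in DMSO with 6% nicotine, from standard research cigarettes, and no label says how long the cells were exposed. Each group's arrays carry the numbers 1 to 3, with no statement that the cultures were separate, and p-values therefore measure a spread between arrays that may be only technical.

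Thioredoxin is a small protein whose paired cysteines reduce disulfides in other proteins. Thioredoxin reductase, a selenoenzyme, restores it with electrons from NADPH, in the cytosol through TXNRD1 and TXN and in mitochondria through TXNRD2 and TXN2. Peroxiredoxins such as PRDX1 spend thioredoxin's electrons on hydrogen peroxide, and sulfiredoxin, the product of SRXN1, repairs peroxiredoxins that peroxide has over-oxidised. TXNIP, an alpha-arrestin, binds reduced thioredoxin and also lowers glucose uptake. TXNRD1, PRDX1 and SRXN1 are textbook targets of the transcription factor NRF2, which binds antioxidant response elements, while TXNIP is a target of the glucose-sensing factor MondoA, which binds carbohydrate response elements.

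Promoter sequences are shown for the 3 genes with the largest differences, since these elements are the known entry points of both factors. RefSeq windows of build GRCh38.p14, from 250 bases before to 50 bases after a transcript start, were held for 5 of the 7 genes. PRDX1 and TXN2 had none. Each window is printed 5′ to 3′ on the gene's own strand, and capitals mark either the core of the antioxidant response element (TGACNNNGC) or a carbohydrate response element, taken as a pair of CACGNG letters with 5 bases between them, searched on both strands. The build of the arrays' processing is hg18, and no array coordinate was set against these windows. The first TXNRD1 window lies at chr12:104215529-104215828 on the plus strand, the second at chr12:104286782-104287081 on the plus strand, the SRXN1 window at chr20:653151-653450 on the minus strand and the TXNIP window at chr1:145996530-145996829 on the minus strand.
TXNRD1, first start: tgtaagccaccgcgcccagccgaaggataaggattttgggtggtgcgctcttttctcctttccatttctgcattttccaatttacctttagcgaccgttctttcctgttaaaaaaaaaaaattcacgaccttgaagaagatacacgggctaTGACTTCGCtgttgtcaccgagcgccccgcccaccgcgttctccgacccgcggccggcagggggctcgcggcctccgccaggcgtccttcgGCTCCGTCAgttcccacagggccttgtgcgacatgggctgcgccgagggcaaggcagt
TXNRD1, second start: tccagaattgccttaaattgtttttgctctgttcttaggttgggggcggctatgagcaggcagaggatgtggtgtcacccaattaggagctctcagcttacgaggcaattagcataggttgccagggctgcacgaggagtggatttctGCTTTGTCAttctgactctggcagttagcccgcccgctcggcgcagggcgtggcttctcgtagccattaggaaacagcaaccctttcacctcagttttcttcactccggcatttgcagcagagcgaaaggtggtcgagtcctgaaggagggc
SRXN1: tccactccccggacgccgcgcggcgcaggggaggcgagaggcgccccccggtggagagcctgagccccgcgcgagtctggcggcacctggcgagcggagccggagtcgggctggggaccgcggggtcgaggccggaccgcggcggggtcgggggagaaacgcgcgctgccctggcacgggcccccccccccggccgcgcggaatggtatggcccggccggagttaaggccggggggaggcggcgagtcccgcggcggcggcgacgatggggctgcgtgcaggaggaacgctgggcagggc
TXNIP: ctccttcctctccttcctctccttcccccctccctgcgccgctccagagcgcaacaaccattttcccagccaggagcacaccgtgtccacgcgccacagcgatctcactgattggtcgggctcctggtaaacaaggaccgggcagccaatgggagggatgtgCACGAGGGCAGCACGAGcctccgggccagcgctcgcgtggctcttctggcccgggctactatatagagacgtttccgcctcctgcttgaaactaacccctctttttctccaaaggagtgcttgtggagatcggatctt

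The antioxidant response core was in both TXNRD1 windows, 2 matches in the first and 1 in the second, and in 13.3% of all 35116 windows. It was not in the windows of SRXN1, TXNIP, TXN or TXNRD2. The paired carbohydrate response half-sites were in the TXNIP window printed above, starting 88 bases before the transcript start, and in 20 of all 35116 windows (0.057%). The other 13 measured genes with this match differed from vehicle by -0.13 to 0.37 at 250 µg/ml. TXNIP was the only one of these genes with that match, and its second window had none. The palindrome CACGTG, which 7.26% of windows held, was in no window of the 5 genes. A match is a description of these letters and not a site shown to be used.

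At 250 µg/ml the sulfiredoxin gene SRXN1 rose 2.98-fold and TXNIP fell 2.97-fold against vehicle, and these 2 of the 6 measured genes passed the test (limma, Benjamini-Hochberg over 14207 genes, threshold 0.05). Across all genes 0.549% passed in that comparison. The cytosolic reductase TXNRD1 and the peroxiredoxin PRDX1 were higher in every treated array than in every vehicle array at both doses without passing the test. Neither of the mitochondrial genes TXNRD2 and TXN2 passed. At 250 µg/ml TXNRD2 lay wholly below vehicle, with a log2 difference of -0.36 ± 0.13 (SE), close in size to that of PRDX1, 0.39 ± 0.09. TXN2 overlapped vehicle at both doses. By mean signal TXNRD2 and TXN2 stood at percentiles 53.0 and 61.5 of all genes, and the other measured genes at 92.1 to 99.2. Whether this had a part in the size of their differences was not tested. At 100 µg/ml 0 of the 6 passed, against 0.0633% of all genes. Values below are log2 summaries of probe set intensity. They can be compared between arrays for 1 gene and not between genes. In lysates of whole cultures, more RNA of a gene per cell and more cells that express it cannot be told apart.

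**Figure D1:**
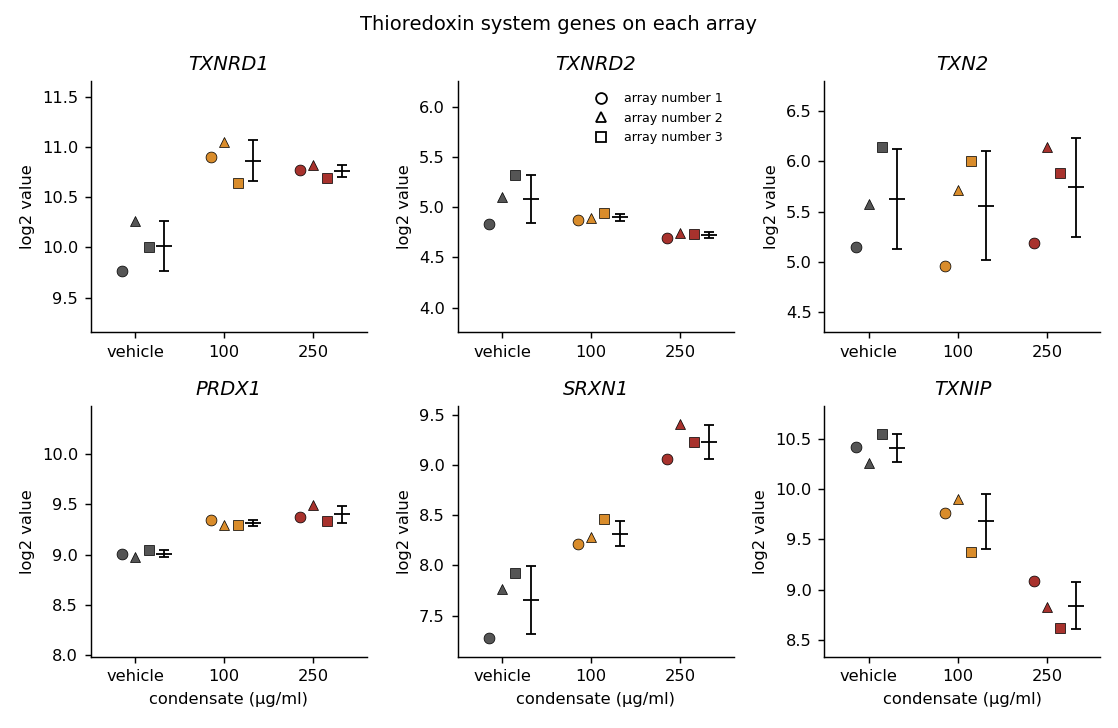
Log2 value of the 6 measured genes on each of the 9 arrays, by dose of condensate (µg/ml), with shapes for the array number and bars for the mean and SD of 3 arrays. Every panel spans the same log2 range. SRXN1 steps up and TXNIP steps down at each dose with no overlap between groups, TXNRD1 and PRDX1 lie above vehicle at both doses, and TXN2 spreads widely within every group.

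TXNRD1 encodes the cytosolic thioredoxin reductase. Its log2 value was 9.77, 10.26 and 10.00 in the vehicle arrays, 10.90, 11.05 and 10.64 at 100 µg/ml, and 10.77, 10.82 and 10.69 at 250 µg/ml. Both doses lay above all vehicle arrays and overlapped each other. The difference from vehicle was 0.85 ± 0.15 log2 units at 100 µg/ml (SE, n = 3 arrays per group, limma adjusted p = 0.13), a 1.80-fold higher mean. At 250 µg/ml it was 0.75 ± 0.15 (adjusted p = 0.069), a 1.68-fold higher mean. In 18 alternative settings TXNRD1 passed in 2 at 250 µg/ml (limma adjusted p up to 0.24) and in 1 at 100 µg/ml (up to 0.46). Where it passed, the adjusted p was 0.042 after quantile normalization and 0.046 with array weights at 250 µg/ml, and 0.032 with array weights at 100 µg/ml. Between the doses TXNRD1 differed by -0.10 ± 0.15, with a 95% interval of -0.45 to 0.25.

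TXNRD2 encodes the mitochondrial reductase. Its log2 value was 4.84, 5.10 and 5.32 in the vehicle arrays, 4.87, 4.89 and 4.94 at 100 µg/ml, and 4.70, 4.75 and 4.73 at 250 µg/ml. The arrays at 250 µg/ml lay below all others, and those at 100 µg/ml lay within the vehicle range. The difference from vehicle was -0.18 ± 0.13 at 100 µg/ml (limma adjusted p = 0.52) and -0.36 ± 0.13 at 250 µg/ml (adjusted p = 0.22, 95% interval -0.65 to -0.07). Whether both reductases differed unequally was asked from the TXNRD1 value minus the TXNRD2 value within each array. That quantity was 1.03 ± 0.19 log2 units higher at 100 µg/ml and 1.11 ± 0.14 higher at 250 µg/ml than in vehicle (SE, n = 3 per group). The groups did not overlap at either dose, with exact two-sided permutation p = 0.1 for each and 0.1 after adjustment over the 2 tests. This is the smallest p that this test can give for 3 arrays against 3, so it cannot reach 0.05 here. At 250 µg/ml TXNRD1 lay wholly above vehicle and TXNRD2 wholly below it, so the result at that dose was fixed beforehand.

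TXN2 encodes mitochondrial thioredoxin, the substrate of TXNRD2. It had log2 values of 5.15, 5.58 and 6.14 in the vehicle arrays, 4.96, 5.71 and 6.01 at 100 µg/ml, and 5.19, 6.14 and 5.89 at 250 µg/ml. All groups overlapped, and the array numbered 1 was the lowest of its group in all 3 groups. From vehicle it differed by -0.06 ± 0.36 at the lower dose and 0.12 ± 0.36 at the higher (limma adjusted p = 0.96 and 0.89). The 95% interval was -0.89 to 0.76 at the lower dose and -0.71 to 0.94 at the higher. With the array number as a block the difference at the higher dose was 0.12 ± 0.16 (95% interval -0.27 to 0.51), and it did not pass (limma adjusted p = 0.71). Deviations of like-numbered vehicle and treated arrays did not correlate throughout over all genes, so this block was not the reported fit.

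PRDX1 encodes an abundant cytosolic peroxiredoxin. It had log2 values of 9.01, 8.97 and 9.05 in the vehicle arrays, 9.34, 9.30 and 9.30 at 100 µg/ml, and 9.38, 9.49 and 9.33 at 250 µg/ml. All treated arrays lay above all vehicle arrays, and the doses overlapped each other. The difference was small with a narrow spread, 0.30 ± 0.09 at 100 µg/ml (1.23-fold, limma adjusted p = 0.22) and 0.39 ± 0.09 at 250 µg/ml (1.31-fold, adjusted p = 0.083). In the 18 alternative settings at 250 µg/ml it ran from 0.35 to 0.43 and passed in 0 of them.

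SRXN1 encodes sulfiredoxin. Its log2 value was 7.28, 7.77 and 7.92 in the vehicle arrays, 8.21, 8.28 and 8.46 at 100 µg/ml, and 9.06, 9.40 and 9.23 at 250 µg/ml. The 3 groups did not overlap anywhere, with 100 µg/ml between the others. The difference from vehicle was 0.66 ± 0.18 at 100 µg/ml (1.58-fold, limma adjusted p = 0.21). At 250 µg/ml SRXN1 rose by 1.57 ± 0.18 (adjusted p = 0.013), which was the 28th largest increase of 14207 genes. A second probe set that names SRXN1 together with SCRT2 lay between 2.48 and 2.74 on all arrays, below the lower quartile of every array, and differed from vehicle by 0.06 at 250 µg/ml.

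TXNIP encodes the thioredoxin-binding alpha-arrestin. Its log2 value was 10.42, 10.26 and 10.55 in the vehicle arrays, 9.76, 9.90 and 9.37 at 100 µg/ml, and 9.08, 8.82 and 8.61 at 250 µg/ml. As for SRXN1 no groups overlapped, here in the downward order. The difference was -0.73 ± 0.17 at 100 µg/ml (limma adjusted p = 0.19), a 1.66-fold lower mean. At 250 µg/ml it was -1.57 ± 0.17 (adjusted p = 0.011), the 32nd largest decrease of 14207 genes.

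Both calls at 250 µg/ml depended on 1 array. Without the 250 µg/ml array numbered 2 the differences were 1.49 for SRXN1 and -1.56 for TXNIP, with limma adjusted p of 0.098 and 0.093, and all genes called fell to 4, against 78 with all arrays. Leaving out any other single array kept both under the threshold, with adjusted p of 0.013 to 0.048.

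**Figure D2:**
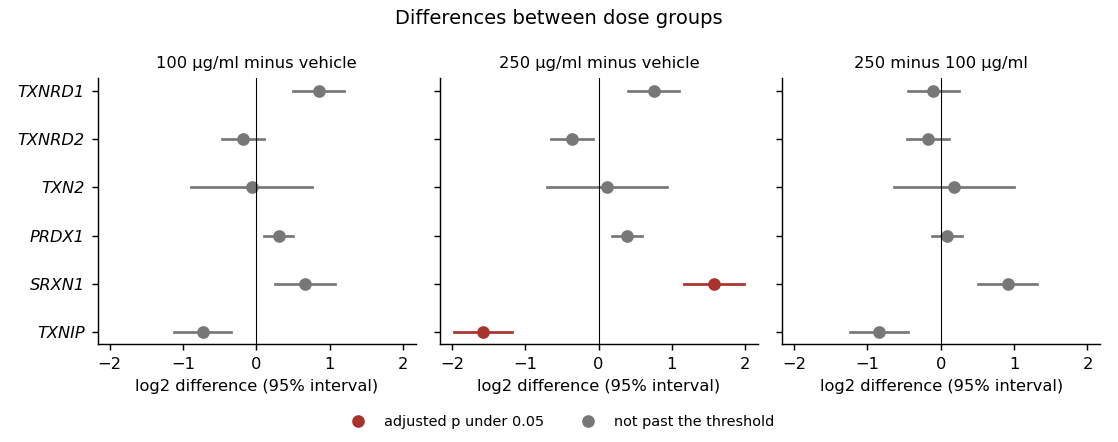
Log2 difference with its 95% interval from the limma fit for the 6 measured genes, in panels for 100 µg/ml minus vehicle, 250 µg/ml minus vehicle and 250 minus 100 µg/ml. SRXN1 at 1.57 and TXNIP at -1.57 pass the threshold in the middle panel, and between the doses SRXN1 and TXNIP lie away from 0 while TXNRD1 and PRDX1 have intervals that include it.

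Between both treated groups 0 of the 6 genes passed, as did 0 of all 14207 (0% called, with 262 genes at an unadjusted p under 0.05 and 0 called with the replicate block). SRXN1 was 0.91 ± 0.18 log2 units higher at 250 than at 100 µg/ml (95% interval 0.51 to 1.32, limma adjusted p = 1.00, unadjusted 0.00073). TXNIP differed by -0.84 ± 0.17 (interval -1.23 to -0.45, adjusted p = 1.00, unadjusted 0.0011). By size of the moderated t statistic they stood 5th and 6th of 14207. Deviations of like-numbered arrays correlated between the doses, taken as a pairing that comes from these data. The SEs, intervals and p-values above are of the fit without this pairing. With the replicate block the SEs were 0.13 for SRXN1 and 0.17 for TXNIP. That block also takes in the vehicle arrays, and no paired fit of the treated arrays alone was made. That 0 genes passed therefore does not show that the doses were alike. Neither gene overlapped between the doses, so any matching of arrays keeps the direction of the difference. SRXN1 was higher by 0.85, 1.12 and 0.77 for numbers 1, 2 and 3, and TXNIP differed by -0.68, -1.07 and -0.76.

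The steps of SRXN1 and TXNRD1 between the doses were then set against each other, a comparison chosen after their values were seen. The SRXN1 value minus the TXNRD1 value within each array was 1.01 ± 0.20 higher at 250 than at 100 µg/ml (SE, n = 3 per group, groups not overlapping). The exact two-sided permutation p was 0.1, the smallest possible, and 0.12 after adjustment over the 6 tests of this kind. Both the SE and the permutation took the arrays as unpaired. As the pair was chosen after its values were seen, this p adds no support. At 100 µg/ml against vehicle the same quantity differed by -0.19 ± 0.23 with overlapping groups (exact permutation p = 0.5). TXNIP minus TXNRD1, also not planned, differed from vehicle by -1.58 ± 0.21 at 100 µg/ml and by -2.32 ± 0.23 at 250 µg/ml. The exact permutation p was 0.1 for each, and 0.12 after adjustment over the same 6 tests. At both doses TXNIP lay wholly below vehicle and TXNRD1 wholly above it, so this p was fixed beforehand and adds no support.

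Treated arrays lay wholly above or below vehicle for 4 of the 6 genes at 100 µg/ml and 5 of 6 at 250 µg/ml, and the doses did not overlap each other for 3 of 6 (SRXN1, TXNIP and TXNRD2). Over all genes the shares without overlap were 18.3%, 22.9% and 6.17%. Both control comparisons use the same vehicle arrays, so they are not separate evidence. The median difference of all genes was -0.05 at the lower and -0.04 at the higher dose.

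The rest of the pathway was read from 6 lists of related genes, in which 1 of 67 measured genes passed, at 250 µg/ml, and 0 at 100 µg/ml. That gene was TMX4, a membrane protein of the endoplasmic reticulum with a thioredoxin domain. On the log2 scale it lay at 6.79, 6.74 and 7.23 in the vehicle arrays, 8.19, 7.98 and 7.77 at 100 µg/ml, and 8.49, 8.15 and 7.998 at 250 µg/ml. Both doses lay above vehicle. TMX4 rose by 1.29 ± 0.18 at 250 µg/ml (limma adjusted p = 0.033), and had a difference of 1.06 ± 0.18 at 100 µg/ml (adjusted p = 0.13). The call at 250 µg/ml held in 10 of 18 alternative settings, with adjusted p of 0.019 to 0.15.

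Among the other 14 measured glutaredoxins and thioredoxin-fold proteins 0 passed, and the list of 15 had a median difference of 0.23 at 250 µg/ml, beside -0.04 over all genes, and of 0.14 at 100 µg/ml, beside -0.05. TXNDC12, a thioredoxin-fold protein of the endoplasmic reticulum, differed by 0.77 ± 0.23 at 250 µg/ml (adjusted p = 0.17) and TXNDC15 by 0.42 ± 0.13 (adjusted p = 0.17). For both of these the arrays at 250 µg/ml lay above all vehicle arrays. This held for 4 of the list of 15, with 0 wholly below, beside 22.9% of all genes without overlap in either direction.

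None of the 4 other measured peroxiredoxins passed, and the median of that list was -0.01 at 250 µg/ml. PRDX2, a cytosolic relative of PRDX1, differed by 0.08 ± 0.13, the mitochondrial PRDX3 by 0.14 ± 0.32 and PRDX6, which glutathione rather than thioredoxin recycles, by -0.17 ± 0.17. Their arrays overlapped vehicle at both doses.

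Of 11 measured genes listed as users or partners of thioredoxin, 0 passed, with a median of 0.10 at 250 µg/ml. PAPSS2, which makes the sulfate donor PAPS, whose reduction uses thioredoxin in yeast, differed by -0.61 ± 0.18 at 250 µg/ml (limma adjusted p = 0.15), with all arrays below vehicle. It was the 1 gene of this list without overlap at that dose, beside 22.9% of all genes. The ribonucleotide reductase subunit gene RRM2B differed by -0.34 ± 0.18 and the methionine sulfoxide reductase gene MSRA by -0.47 ± 0.18, and both overlapped vehicle. The means of 7 of the 11 lay above vehicle, among them the other ribonucleotide reductase subunits RRM1 (0.44 ± 0.32) and RRM2 (0.80 ± 0.57) and the sulfoxide reductases MSRB1 (0.38 ± 0.35), MSRB2 (0.28 ± 0.37) and MSRB3 (0.25 ± 0.15), named after their values were seen. All 5 overlapped vehicle at 250 µg/ml, whereas RRM2 at 100 µg/ml lay above vehicle, by 1.60 ± 0.57 (limma adjusted p = 0.27).

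The alpha-arrestin relatives of TXNIP went different ways, and 0 of 4 passed. ARRDC4, which is close to TXNIP in sequence and shares its carbohydrate response, had log2 values of 4.61, 4.80 and 5.07 in the vehicle arrays, 3.92, 4.24 and 4.43 at 100 µg/ml, and 4.36, 4.12 and 4.45 at 250 µg/ml. Both doses lay below vehicle, with differences of -0.63 ± 0.17 and -0.51 ± 0.17 (limma adjusted p = 0.21 and 0.20). ARRDC3, an adaptor in receptor ubiquitination, had 7.57, 6.87 and 8.32 in the vehicle arrays, 9.22, 9.39 and 8.46 at 100 µg/ml, and 9.73, 9.65 and 8.57 at 250 µg/ml. Both doses lay above vehicle, with differences of 1.44 ± 0.44 and 1.74 ± 0.44 (adjusted p = 0.22 and 0.11). ARRDC2 differed by -0.50 ± 0.23 at 250 µg/ml and overlapped vehicle.

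Among 11 measured regulators and partners of TXNIP 0 passed, with a median of -0.04 at 250 µg/ml. KLF6, a zinc-finger factor, differed by -0.92 ± 0.20 at 250 µg/ml (limma adjusted p = 0.079), with all arrays below vehicle. It was the 1 gene of this list without overlap at that dose, beside 22.9% of all genes. DDIT4, a stress gene whose product binds TXNIP, differed by -0.89 ± 0.41 (adjusted p = 0.32) and overlapped vehicle. NLRP3, the inflammasome sensor that binds TXNIP, lay near the bottom of the scale with a mean of 3.01 and differed by -0.16 ± 0.12.

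Of 22 measured selenoprotein and selenocysteine insertion genes, the class to which both reductases belong, 0 passed, with a median of -0.12 at 250 µg/ml. SELENOP, the secreted selenium carrier, differed by -1.70 ± 0.40 (limma adjusted p = 0.093) and SELENOH, a nuclear selenoprotein, by -1.12 ± 0.33 (adjusted p = 0.16). EEFSEC, the elongation factor that delivers selenocysteine to the ribosome, differed by 0.62 ± 0.14 (adjusted p = 0.086). For each of the 3 the arrays at 250 µg/ml did not overlap vehicle. Of the 22 genes 1 lay wholly above vehicle at that dose and 4 wholly below, beside 22.9% of all genes without overlap.

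**Figure D3:**
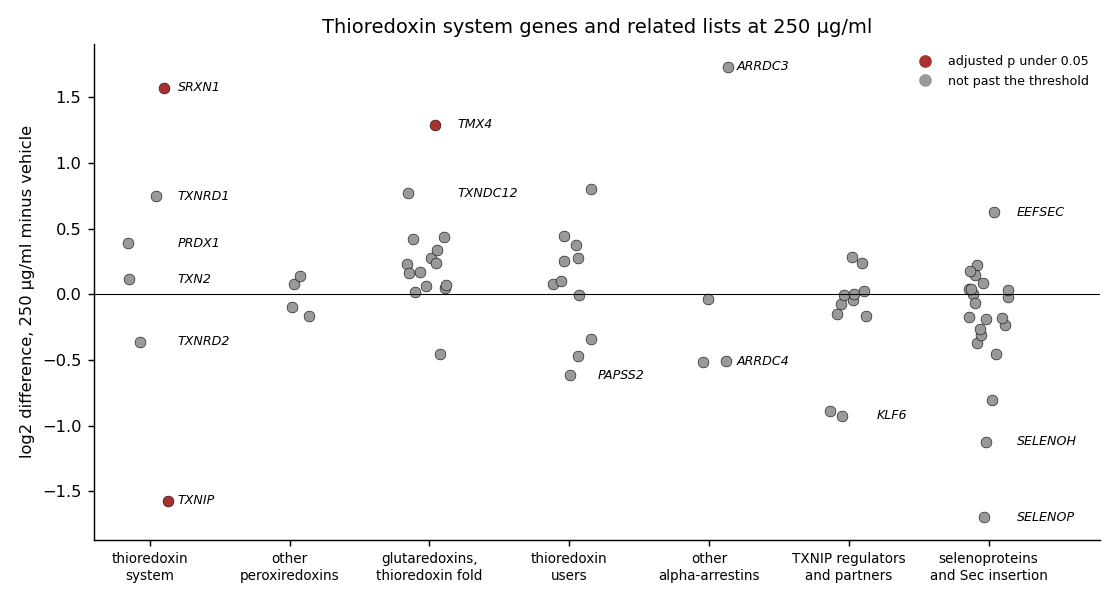
Log2 difference of 250 µg/ml minus vehicle for the measured thioredoxin system genes and 6 lists of related genes, 1 point per gene, with genes past the threshold in red. SRXN1, TMX4 and TXNIP are past it, and ARRDC3 at 1.74 and ARRDC4 at -0.51 lie on opposite sides of 0.

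The genes whose pattern over the 9 arrays was most like that of TXNRD1, SRXN1 and TXNIP were named by Pearson correlation, as a description. The arrays fall into 3 dose groups, so any gene that follows the dose scores high. For TXNRD1 these were CRELD2, a protein of the endoplasmic reticulum, the tRNA deaminase gene ADAT2, the nicotinic receptor subunit gene CHRNA5, TMEM185A and PCK2, which makes mitochondrial phosphoenolpyruvate, with r of 0.95 to 0.96. Of these CHRNA5 passed the test, by 2.09 ± 0.21 at 250 µg/ml (limma adjusted p = 0.0089) and 1.83 ± 0.21 at 100 µg/ml (adjusted p = 0.048). The call at 100 µg/ml held in 6 of 18 alternative settings and that at 250 µg/ml in 15, being lost without the 250 µg/ml array numbered 2 (adjusted p = 0.072), in a fit to the 6 arrays compared and with unmoderated variance.

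For SRXN1 the most similar genes were LRRC20, the fatty acid transport gene SLC27A4, the phosphatase gene DUSP19, SH3BP5 and the endocytic gene EHD3, again with r of 0.95 to 0.96. SLC27A4 rose by 0.92 ± 0.11 at 250 µg/ml (limma adjusted p = 0.016) and SH3BP5 by 0.91 ± 0.09 (adjusted p = 0.0089). These calls held in 13 and 16 of 18 alternative settings, with adjusted p up to 0.12 and 0.079. Both were lost without the 250 µg/ml array numbered 2 and in a fit to the 6 arrays compared, and that of SLC27A4 also without the 250 µg/ml array numbered 1 or the 100 µg/ml array numbered 2 (adjusted p = 0.053 and 0.054) and with unmoderated variance.

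For TXNIP they were the organic anion transporter gene SLCO1A2, the nicotinamide methyltransferase gene NNMT, the chemokine receptor gene CXCR4, PRR16 and the phosphodiesterase gene PDE1C, with r of 0.95 to 0.98. Both SLCO1A2 and PDE1C fell at 250 µg/ml, with differences of -1.63 ± 0.16 and -1.25 ± 0.13 (limma adjusted p = 0.0089 for each). Each call held in 15 of 18 alternative settings and was lost without the 250 µg/ml array numbered 2 (adjusted p = 0.072 for each), in a fit to the 6 arrays compared and with unmoderated variance. CXCR4 differed by -1.87 ± 0.33 (adjusted p = 0.052).

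**Figure D4:**
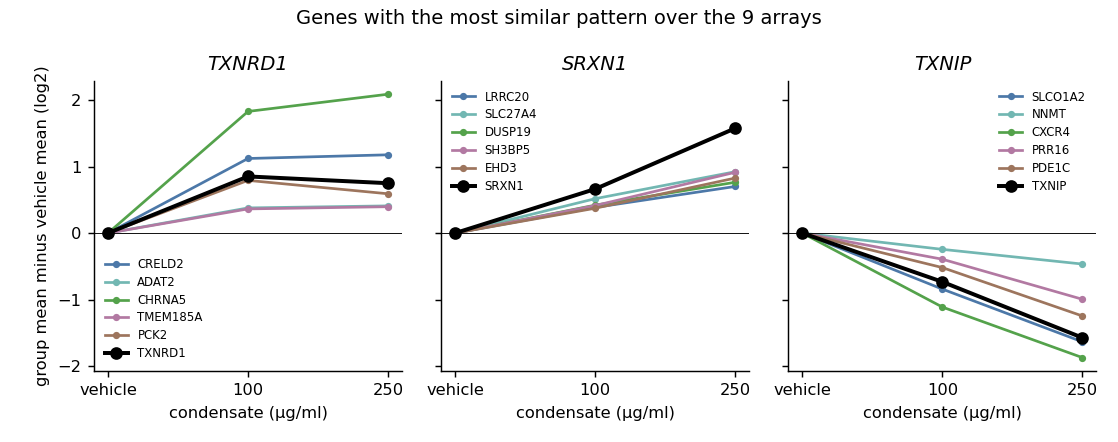
Group mean minus vehicle mean on the log2 scale against dose of condensate (µg/ml) for TXNRD1, SRXN1 and TXNIP (black) and the 5 genes most correlated with each over the 9 arrays. The genes were picked for this likeness. From 100 to 250 µg/ml the means of the 5 genes differ by -0.20 to 0.26 beside TXNRD1, by 0.31 to 0.50 beside SRXN1 and by -0.79 to -0.22 beside TXNIP.

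Markers of the cell line's type were mixed. Of the 14 measured, OTX2, MITF, TYRP1, RDH5, KRT8 and KRT18 lay above the median of each array, and PMEL and MERTK above it on some arrays. Below the median of each array lay the other 6, RPE65, BEST1, RLBP1, LRAT, TTR and SERPINF1. Of these RPE65, which defines the mature visual cycle, lay between 2.33 and 2.69, BEST1 between 2.56 and 2.85 and TTR between 2.54 and 2.89, below the lower quartile of each array (2.89 to 3.10). Of 14 measured pigment epithelium markers and 12 of other cell types 0 passed at either dose, with medians of -0.34 and -0.12 at 250 µg/ml. The largest moderated t at that dose belonged to RPE65 (-0.30 ± 0.09), PMEL (-0.68 ± 0.30) and SERPINF1 (-0.51 ± 0.15) among the pigment epithelium markers, and to the leukocyte gene PTPRC (-0.23 ± 0.09), COL1A1 (-1.01 ± 0.68) and the fibroblast gene DCN (-0.24 ± 0.10) among those of other cell types. PTPRC lay between 2.52 and 2.84, below the lower quartile of each array, and DCN between 2.64 and 3.09, near it. Those of other cell types above the median of each array were PDGFRB (-0.99 ± 0.67) and CD68 (-0.06 ± 0.38). Both overlapped vehicle, and they were named after their values were seen. Whether these differences had a part in those of the thioredoxin genes was not tested. The fibroblast collagen gene COL1A1 was 6.55 in vehicle replicate 2 and 3.50 to 3.75 in all other arrays. Without that array SRXN1 differed by 1.63 and TXNIP by -1.64 at 250 µg/ml (limma adjusted p = 0.030 and 0.024).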

How the data were processed

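The authors deposited log2 values, 1 per transcript-level probe set of an exon array, with RMA, Partek and hg18 named per the submitters' processing notes. Nothing here gives their versions, roles or filters. RMA normalizes arrays together, and differences of dim genes can be compressed in such values. Array medians were 4.42 to 4.59. Detection calls were not used here, and the number of arrays limits the precision.

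Of 17629 probe sets, 14378 name 1 gene, 2405 several and 846 none. Symbols were updated by gene number through RefSeq (GRCh38.p14), and 28 gene numbers had no match. The highest-mean probe set was kept for 169 genes with several, which left 14207 genes.

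limma 3.58.1 in R 4.3.3 was fitted to all 9 arrays with 1 mean per group, moderated variances and Benjamini-Hochberg adjustment over all genes at 0.05. No filter on low values was applied. The fit was also run on simulated data, for 250 µg/ml against vehicle only. Those data held independent arrays, so the run does not cover the pairing between the doses. The genes and lists were chosen with earlier results of these data known. Named were all listed genes of the thioredoxin system, in each other list the genes past the threshold and the 3 with the largest moderated t at 250 µg/ml, and the 5 genes most correlated with TXNRD1, SRXN1 and TXNIP. Some marker genes named beside them were chosen after their values were seen. Comparisons of 2 genes used exact permutation tests, and those that need TXN could not be made.

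To see whether array numbers pair the samples, deviations from group means were correlated. Those of like number correlated at 0.44 to 0.68 between the doses, taken as a pairing, which comes from the data, and at -0.14 to 0.26 between either dose and vehicle, where none was assumed. Alternatives tried were a replicate block, median centring, quantile normalization, leaving out dim genes, averaging probe sets, array weights, only the arrays compared, unmoderated variance and leaving out arrays.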

Additional observations from a re-analysis of the deposited data

How the results depend on the processing

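Of the 6 measured genes, 2 passed at 250 µg/ml in the fit reported and 0 passed with only the 6 arrays of the comparison, with unmoderated variance or without the 250 µg/ml array numbered 2, so that leaving out single arrays gave 0 to 2. In those 3 settings SRXN1 had adjusted p of 0.073 to 0.098 and TXNIP of 0.072 to 0.093. Each passed in 15 of 18 alternatives, with differences of 1.39 to 1.71 and -1.69 to -1.46. Not all 18 could move these differences. Both genes had 1 probe set naming them alone, so averaging probe sets left their values unchanged. The block, the 6 arrays, unmoderated variance, and leaving out dim genes or a 100 µg/ml array keep the differences at 1.57 and -1.57 by construction. After quantile normalization and with array weights 3 of the 6 passed at 250 µg/ml in each, TXNRD1 being the added gene. At 100 µg/ml 0 passed, and 1 (TXNRD1) with array weights. All genes called at 100 µg/ml numbered 9 in the fit reported. They were 3 with the replicate block, 4 after quantile normalization, 73 with array weights, 1 with only the 6 arrays and 0 with unmoderated variance. Leaving out both treated arrays numbered 3, which was chosen after seeing the data, gave 47, and the count was 1 to 57 without single arrays. At 250 µg/ml the count was 78 in the fit reported. It was 122 with the replicate block, 153 after centring on the median, 129 after quantile normalization, 130 without dim genes, 234 with array weights, 1 with only the 6 arrays, 3 with unmoderated variance, 167 without both treated arrays numbered 3 and 4 to 296 without single arrays. The rises and falls were 55 and 23 in the fit reported, 82 and 71 after centring and 65 and 64 after quantile normalization. The replicate block moved none of the 6 genes across the threshold. Between the doses 0 genes passed in the fit reported and in each of the 18 alternatives, and no alternative paired the treated arrays alone. Differences of TXN2 changed sign with single arrays left out, running from -0.30 to 0.24 at 100 µg/ml (0.20 without vehicle replicate 3), from -0.12 to 0.39 at 250 µg/ml (-0.08 without the 250 µg/ml array numbered 2) and from -0.12 to 0.46 between the doses (-0.02 without that array). The causes of these changes between settings were not tested.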
